A study of Mus musculus with 24 samples.

Results

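Matrix metalloproteases (Mmp), Adam and Adamts proteases, the related Adamtsl proteins and the tissue inhibitors of metalloproteases (Timp) were followed in mouse dorsal root ganglia (DRG), the clusters of sensory neurons beside the spinal cord. They were all genes whose symbol is Mmp, Adam, Adamts, Adamtsl or Timp followed directly by a number, a rule that used no measured value. It gave 79 of the 20782 genes in the table: 21 Mmp, 30 Adam, 19 Adamts, 5 Adamtsl and 4 Timp genes. RNA had been sequenced from 24 libraries, 3 in each of 8 groups. In 4 of these, adult lumbar ganglia had been dissociated, plated sparsely on laminin and collected at 6, 12, 24 or 36 h. The other groups were uncultured: ganglia L4 and L5 of adults with a peripheral lesion, the same ganglia after a sham operation, and lumbar ganglia of embryos at E17.5 and at E12.5. No genotype, strain, sex or exact adult age is given for any group, and the time between operation and collection is not given. The labels call every library DRG neuron and attach 1 text on sorted cells to all of them, so it is unknown which groups were sorted. The labels do not tie libraries to separate animals or cultures, and the spread behind each p-value may therefore be technical.

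Mmp and Adamts enzymes are secreted or membrane-bound zinc proteases that cleave collagens, laminins and proteoglycans around cells. Most Adam proteins sit in the plasma membrane, where the active ones release the outer parts of growth factors, adhesion molecules and receptors, while a few have lost protease activity and act as receptors. Timps bind the active enzymes and inhibit them. In nerve, these proteins are known for remodelling basement membranes and the chondroitin sulfate proteoglycans that growing axons meet.

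Values are the read counts as normalized by the authors, called normalized reads here and given per library or as mean ± SD of 3 libraries. Log2 differences are of log2(normalized reads + 1), with their SE, and a gene was called where limma's p, adjusted over all genes of the fit, was under 0.05. The libraries held between 3.10 and 25.7 M reads, and the shallowest were 1 library each of the 6, 12 and 24 h cultures and 2 of the 3 at E17.5. Replicate 3 at E12.5 stood apart: of 43 protease and inhibitor genes with at least 10 normalized reads in every E12.5 library, 29 were highest there and 16 exceeded the mean of the other 2 libraries by over 1.5-fold. Its summed level of fibroblast and mesenchyme markers was 22260, against 10515 and 12180 in the other E12.5 libraries. Non-neuronal markers were present in every group, and the summed level of the 10 fibroblast and mesenchyme markers was 3700 to 4559 normalized reads at 6 h, 8272 to 8568 at 36 h, 11450 to 13804 after lesion, 8700 to 11114 after sham surgery and 38027 to 48141 at E17.5. Fewer cells of a type and less RNA per cell cannot be told apart in these libraries. The numbers in the library names run on from E17.5 to the cultures, while those of the operated ganglia fall in 2 ranges with the E12.5 numbers between them. For 6 h against sham, E17.5 against E12.5 and sham against E17.5 the library numbers and the group cannot be told apart.

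Of the 79 genes, 8 Mmp genes lie within 402 kb of chromosome 9 (7272514 to 7674979, GRCm38): Mmp13, Mmp12, Mmp1b, Mmp3, Mmp1a, Mmp10, Mmp8 and Mmp20. Several of them are known targets of AP-1, the Fos and Jun factor that binds TGANTCA, a motif that reads the same on both strands. The motif was present in the 250 bases before at least 1 RefSeq start of 7 of these 8 genes (87.5%), against 7.82% of all 27025 genes with a RefSeq promoter. Over the 48 genes of the set that had a promoter in the table it was present before 11 (22.9%). Of the 20 such genes higher at 36 h than at 6 h it was present before 4 (20%). Of the 13 higher at 6 h than in sham ganglia it was present before 4 (30.8%). The part of the motif in the levels was not tested. The following 100 bases end just before a RefSeq start of 5 of the genes (GRCm38.p6). They are shown because Mmp3, Mmp13, Mmp12 and Mmp10 were present in culture and low or at 0 in operated adult ganglia. Mmp8 is shown as the gene without a match, and capitals mark the motif.
Mmp3: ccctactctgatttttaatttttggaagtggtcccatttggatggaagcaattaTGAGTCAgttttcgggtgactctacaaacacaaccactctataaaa
Mmp13: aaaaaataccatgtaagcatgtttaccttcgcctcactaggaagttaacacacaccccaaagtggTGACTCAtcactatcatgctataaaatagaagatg
Mmp12: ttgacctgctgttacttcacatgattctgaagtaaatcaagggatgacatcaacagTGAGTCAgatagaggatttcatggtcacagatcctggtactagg
Mmp10: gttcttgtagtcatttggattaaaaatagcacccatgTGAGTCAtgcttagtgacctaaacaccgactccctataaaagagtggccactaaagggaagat
Mmp8: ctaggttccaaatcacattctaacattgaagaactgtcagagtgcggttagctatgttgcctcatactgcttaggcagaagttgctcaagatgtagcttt

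These windows lie on the plus strand, at chr9:7445722-7445821 for Mmp3, chr9:7272414-7272513 for Mmp13, chr9:7347274-7347373 for Mmp12, chr9:7502242-7502341 for Mmp10 and chr9:7558329-7558428 for Mmp8. Mmp12 has a further RefSeq start without the motif, and a match is a match of letters, not a shown binding site. Mmp1a, Mmp1b and Mmp20 hold the same motif, yet Mmp1a and Mmp1b each had reads in 1 of 24 libraries and Mmp20 in 3, with no value above 1.85 normalized reads.

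Mmp3, stromelysin-1, cleaves proteoglycans, laminin and fibronectin and activates other Mmps. Its log2 difference at 6 h in culture over sham ganglia was the largest among all 14566 genes tested (8.96 ± 0.29, limma adjusted p = 8.81e-12). Sham libraries had 0 reads of this gene, so the size of the difference depends on the 1 added before log2, and its rank may too. The SE does not cover that dependence. Mmp3 passed the filter through its 6 h libraries alone. It had 413, 527 and 568 normalized reads at 6 h, 1056, 1242 and 1081 at 12 h, 1717, 1948 and 2065 at 24 h and 1874, 2397 and 2264 at 36 h. Lesion and sham libraries had 0 reads throughout, E17.5 libraries 1.75, 3.53 and 4.62 and E12.5 libraries 0. Every culture library stood above every library outside culture. Against a floor of 3 reads over the group, Mmp3 was at least 691-fold higher at 6 h than in sham ganglia and at least 2629-fold higher at 36 h than after lesion.

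Mmp13, collagenase-3, which cleaves fibrillar collagen, had 360.1, 429 and 554 normalized reads at 6 h, 1056, 1186 and 1018 at 12 h, 1867, 2440.2 and 2321 at 24 h and 1678, 2284 and 1308 at 36 h. The 24 h libraries held its highest values, and those at 36 h spread more widely. Its level was 6.19, 1.67 and 2.89 after lesion, 1.97, 1.46 and 12.6 after sham surgery, 256, 374 and 183 at E17.5 and 0.549, 1.28 and 0 at E12.5. Mmp13 also had a high group outside culture, the E17.5 ganglia, with a log2 difference of 7.42 ± 0.42 (limma adjusted p = 1.85e-06) over E12.5. With E12.5 values near 0, the size of this difference depends on the 1 added before log2, which the SE does not cover. Mmp13 passed the filter through its E17.5 libraries, as it also did for sham against E17.5. Markers of cartilage and bone, where Mmp13 is known to be made, summed to 1901 to 3153 normalized reads at E17.5 and 2624 to 3100 at E12.5. The sums were 857 to 1002 at 36 h and 319 to 327 in sham ganglia. Matn1, Matn3, Col9a1 and Bglap were at 0 at 36 h, Matn1 and Bglap at 24 h, and Matn1 and Matn3 in sham ganglia. Matn1 was also at 0 at 12 h, after lesion and at E12.5. At 36 h over 6 h, 2 of the 6 markers tested were higher and 2 lower. Their part in the Mmp13 values was not tested.

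Mmp12, macrophage elastase, and Mmp10, stromelysin-2, had lower levels. Mmp12 had 2.90, 12.1 and 3.53 normalized reads at 6 h, 27.3, 23.9 and 27.3 at 12 h, 46.7, 56.7 and 61.6 at 24 h and 61.4, 51.2 and 57.2 at 36 h, against at most 3.47 in any library outside culture. The 36 h libraries did not overlap the 6 h libraries (log2 difference 3.23 ± 0.40, limma adjusted p = 9.01e-06), and the macrophage markers summed to 408 to 419 at 36 h and 250 to 308 at 6 h, below the 1460 to 1570 of sham ganglia. Mmp10 had 5.08, 17.0 and 21.2 at 6 h and 27.0, 0 and 12.9 at 36 h, so its 36 h libraries included one at 0 and the groups overlapped. Mmp8, the neutrophil collagenase, was lower in culture: it had 5.81, 6.60 and 10.6 at 6 h, against 54.1, 35.8 and 64.8 in sham ganglia (log2 difference -2.60 ± 0.34, limma adjusted p = 1.31e-05). The neutrophil markers summed to 96.2 to 163 at 6 h and 737 to 864 in sham ganglia, and their part in the Mmp8 difference was not tested.

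**Figure D1:**
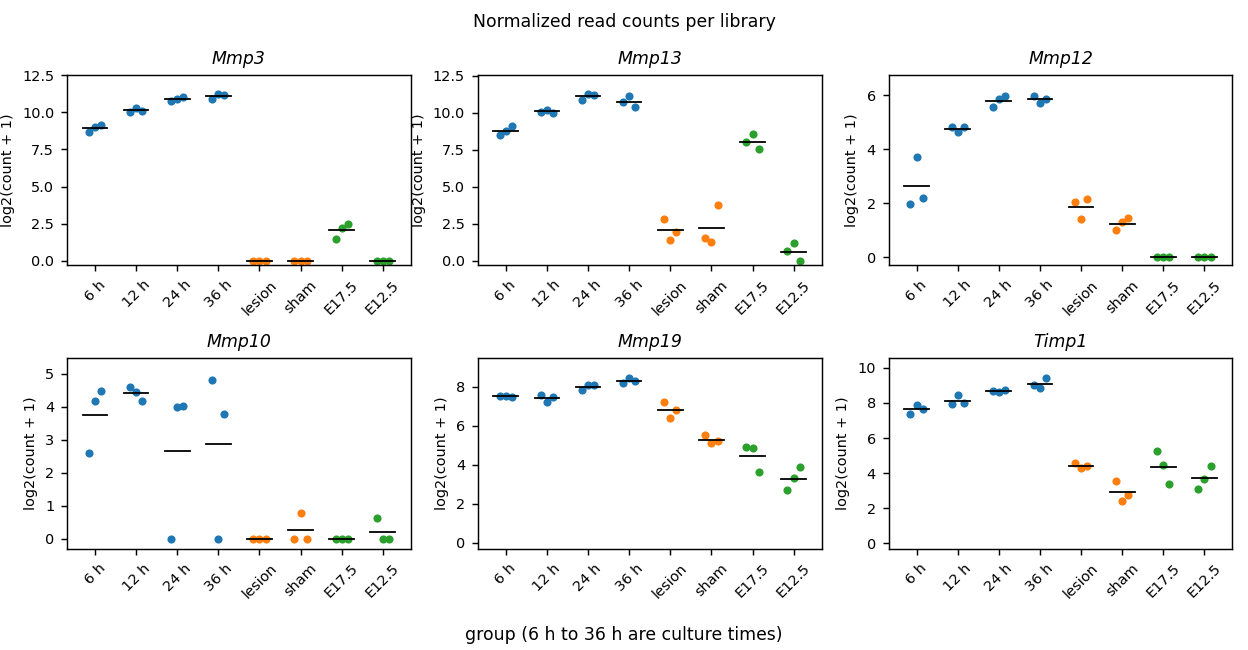
Normalized read counts of Mmp3, Mmp13, Mmp12, Mmp10, Mmp19 and Timp1 as log2(count + 1), 1 panel per gene, with a point per library and a bar at the mean of the 3 libraries of each group (6 to 36 h culture, lesion, sham, E17.5, E12.5). Every culture library of Mmp3 lies above all other groups, as do those of Mmp12 from 12 h on, Mmp13 is also high at E17.5, and Timp1 is highest in culture.

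Of the 79 genes, 58 passed the filter of at least 10 normalized reads in 3 libraries of at least 1 comparison. Because such a filter keeps a gene that is high in 1 group, counts below are given beside those over all genes. The 21 genes tested nowhere were 14 Adam and 5 Mmp genes with Adamts13, which cleaves von Willebrand factor, and Timp4. Their highest single value was 37.0 normalized reads, for Mmp23 at E17.5, and Adam26a had no read in any library. Many of the untested Adam genes, such as Adam2, Adam3, Adam5, Adam18 and Adam24, are known from testis.

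Per kb of exon, the most abundant of these transcripts in all groups but E12.5 was Timp2, an inhibitor that also helps Mmp14 to activate pro-Mmp2. It had 4314 ± 429 normalized reads per kb at 6 h, 3377 ± 299 at 36 h, 4138 ± 262 after lesion, 4265 ± 212 after sham surgery and 2250.0 ± 209 at E17.5. Next per kb came Timp3, the matrix-bound inhibitor that also blocks Adam17 and the aggrecan-cleaving Adamts enzymes, in each of these 5 groups except 36 h, where Mmp3 had 1209.5 ± 151 and Timp3 1087 ± 172, within their spread. At E12.5 the order differed. There Adam10, the sheddase of Notch and cadherins, led with 489 ± 1.22, ahead of Timp2 with 364 ± 148 and Mmp2 with 285 ± 149. Replicate 3 held the highest E12.5 value of Timp2 and of Mmp2.

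The group with the highest mean was 36 h culture for 17 of the 58 tested genes and E17.5 for 18. E12.5 and lesion held the highest mean of 6 genes each, 12 and 24 h of 4 each, sham of 2 and 6 h of 1. By family, 9 of the 18 genes highest at E17.5 were Adamts genes. Summed Mmp levels were 10237 ± 1133 normalized reads at 36 h and 4475 ± 363 at 6 h, and 5678 ± 158 after lesion, against 3706 ± 252 in sham ganglia.

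**Figure D2:**
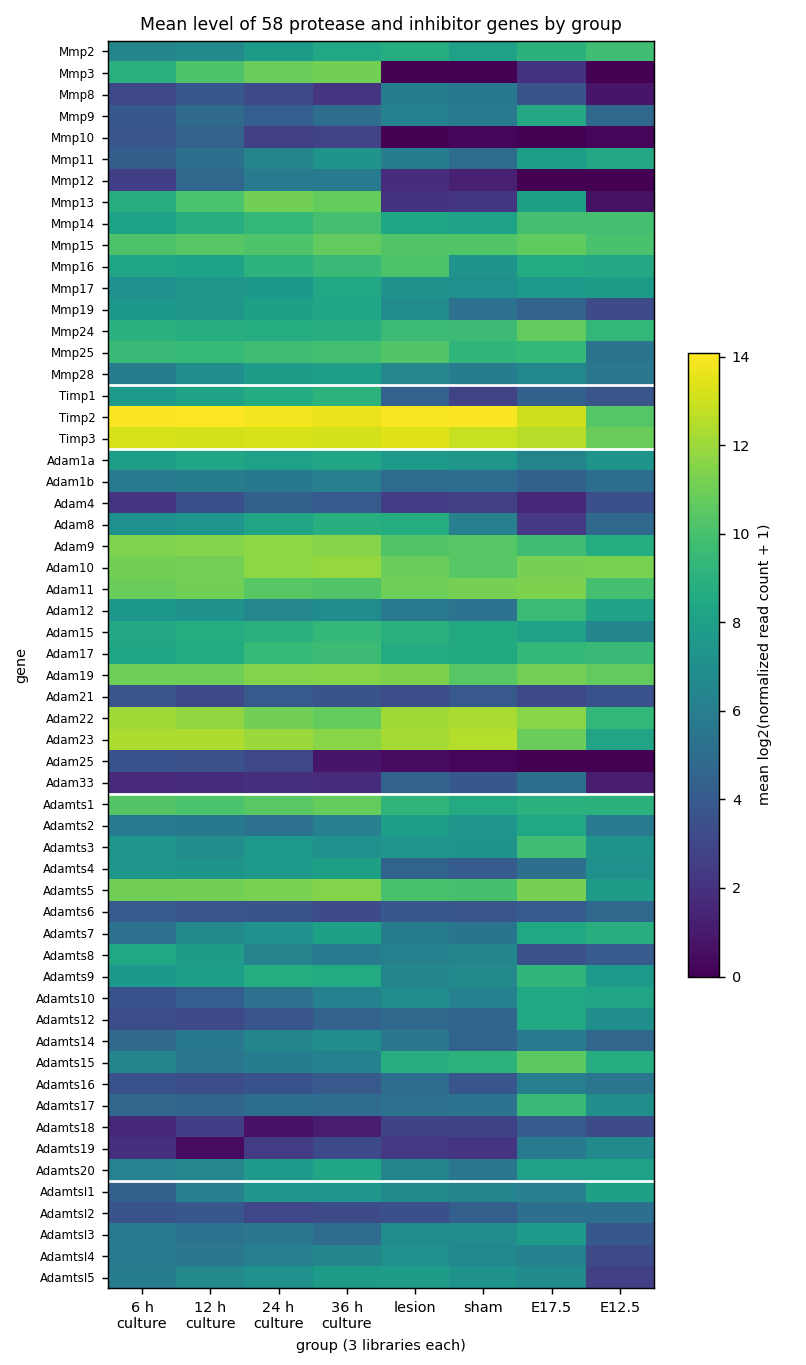
Mean log2(normalized read count + 1) of the 58 tested genes (rows, grouped as Mmp, Timp, Adam, Adamts and Adamtsl) in the 8 groups (columns, 3 libraries each), on a colour scale from 0 upward. The values are not adjusted for gene length, and the E12.5 mean of Adamts6 includes 2 trimmed-mean values; Timp2 and Timp3 form the brightest rows in most groups, and Mmp3 and Mmp13 are bright in the culture columns.

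The 6 h cultures were set against sham ganglia, a comparison in which dissociation, plating, the 6 h in the dish and the range of library numbers differ together. Of 53 genes tested, 20 were higher at 6 h and 14 lower, while over all genes tested 27.6% were higher and 30.7% lower. The groups did not overlap for 36 genes, against 65.2% of all genes. Adam genes were mostly on the higher side (8 higher and 1 lower of 15), the 5 Adamtsl genes were not (0 higher, at an unadjusted limma p as well as an adjusted one, and 4 lower), and Mmp genes were split with 4 in each direction of 14.

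Timp1, a secreted inhibitor known to be induced by inflammatory cytokines, had 163, 236 and 197 normalized reads at 6 h, against 10.8, 4.39 and 5.73 in sham ganglia. The groups did not overlap (log2 difference 4.71 ± 0.30, limma adjusted p = 6.79e-09). Adamts4 and Adamts1, both enzymes that cleave aggrecan and versican, rose as well. Adamts4 had 160.5, 166 and 169 at 6 h and 18.7, 13.9 and 17.2 in sham ganglia (log2 difference 3.25 ± 0.21, limma adjusted p = 9.24e-09). For Adamts1 the values were 1314, 1099 and 1379 at 6 h and 377, 409 and 401 in sham ganglia (log2 difference 1.67 ± 0.11, limma adjusted p = 1.77e-08), and its neighbour on chromosome 16, Adamts5, differed by 1.06 ± 0.12 (limma adjusted p = 2.35e-06). Each of the 3 genes was higher in all 6 h libraries than in any sham library.

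Other rises were Mmp19 (2.23 ± 0.18, limma adjusted p = 1.12e-07), Adam12, a sheddase of heparin-binding EGF (2.16 ± 0.20, limma adjusted p = 3.57e-07), Adamts8 (1.93 ± 0.16, limma adjusted p = 1.29e-07) and the membrane-type Mmp16 (1.00 ± 0.14, limma adjusted p = 3.43e-05). Adam10 rose by 0.66 ± 0.11 (limma adjusted p = 9.94e-05). Of the 10 endothelial markers 5 were higher and 1 lower at 6 h, with sums of 3050 to 3810 at 6 h, against 1628 to 1835 in sham ganglia, and their part in the rises was not tested. Timp2 had 17089, 18321 and 15010.5 at 6 h and 16449.7, 15889 and 17514 in sham ganglia, and the groups overlapped (log2 difference 0.01 ± 0.10, limma adjusted p = 0.919). Mmp14 (0.11 ± 0.16, limma adjusted p = 0.588), Adam17 (-0.26 ± 0.13, limma adjusted p = 0.0988), Adam11 (-0.27 ± 0.12, limma adjusted p = 0.0703), Adam22 (-0.20 ± 0.11, limma adjusted p = 0.125) and Adam23 (-0.16 ± 0.12, limma adjusted p = 0.261) were not called. Timp3 was higher by 0.34 ± 0.10 (limma adjusted p = 0.0109), a call that was lost without trend and robust settings of limma's eBayes (adjusted p = 0.0565) and with 1 spread over all 24 libraries (0.114).

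Adamts15, another proteoglycan-cleaving enzyme, fell. It had 92.2, 91.3 and 77.6 normalized reads at 6 h and 535, 550.5 and 568 in sham ganglia (log2 difference -2.65 ± 0.14, limma adjusted p = 8.10e-10). Mmp2, gelatinase A, had 86.4, 84.1 and 91.7 at 6 h and 302, 251 and 239 in sham ganglia (-1.58 ± 0.15, limma adjusted p = 6.41e-07), and Mmp9, gelatinase B, had 12.3, 14.3 and 14.1 at 6 h and 55.1, 41.7 and 67.7 in sham ganglia (-1.91 ± 0.28, limma adjusted p = 3.68e-05). None of the 3 overlapped between the groups. Adamts2, which trims procollagen (-1.56 ± 0.22, limma adjusted p = 2.59e-05), Adamtsl5 (-1.31 ± 0.22, limma adjusted p = 0.000127), Adamtsl3 (-1.01 ± 0.20, limma adjusted p = 0.0006) and the membrane-type Mmp24 (-0.65 ± 0.12, limma adjusted p = 0.000226) fell too. Of the 10 fibroblast and mesenchyme markers 2 were higher and 6 lower at 6 h, and the myelinating Schwann cell markers summed to 21029 to 28943 at 6 h, against 69492 to 87681 in sham ganglia. Markers of satellite glia and Schwann precursors were lower for 7 of 8, and macrophage markers for 7 of 9. The part of these cells in the falls was not tested.

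Within culture, from 6 to 36 h, most of the set moved upward. Of 55 genes, 31 were higher at 36 h than at 6 h and 7 lower, with a median log2 difference of 0.54 against 0.02 over all 15006 genes, of which 25.3% were higher and 25.3% lower. Groups did not overlap for 40 of the 55 genes, against 59.0% of all genes. Among Mmp genes 12 of 16 were higher and 0 lower, with 0 lower at an unadjusted limma p under 0.05 too. Of 16 Adamts genes 9 were higher and 1 lower, and of 15 Adam genes 7 were higher and 5 lower. The F test over the 4 times called 31 of the 55 genes, against 45.7% of all genes.

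Of the successive steps, 12 h over 6 h gave 8 higher and 2 lower genes (all genes 5.86% and 4.72%). At 24 h over 12 h there were 16 higher and 3 lower (all genes 4.82% and 6.74%). At 36 h over 24 h Mmp17 and Adam8 were higher and 0 genes lower (all genes 1.11% and 1.55%), while at an unadjusted limma p under 0.05 these counts were 14 and 5. By edgeR on the recovered reads they were 4 and 1, by DESeq2 7 and 0. Over all genes at this step, limma called 398 of 15006 in either direction, edgeR 561 of 15006 and DESeq2 1079 of 14133. No share over all genes is given at the unadjusted p. The lower count of the 12 h step fell to 0 without replicate 1 or 2 at 6 h or replicate 2 at 12 h, and the higher count of the 24 h step was 9 without replicate 1 or 2 at 24 h.

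The membrane-type Mmp14, Mmp16 and Mmp17 rose over the course. Mmp14, which cleaves collagen at the cell surface and activates pro-Mmp2, had 288, 355 and 222 normalized reads at 6 h, 409, 524 and 501 at 12 h, 691, 691 and 616 at 24 h and 799.9, 1116 and 1033 at 36 h. Each time stood above the one before it without overlap (36 h over 6 h 1.78 ± 0.17, limma adjusted p = 8.31e-07). Mmp2, its substrate, had 86.4, 84.1 and 91.7 at 6 h, 66.2, 146 and 120.2 at 12 h, 189, 245 and 186 at 24 h and 278, 443 and 309 at 36 h. Its 6 and 12 h libraries overlapped and the later times stood above both (36 h over 6 h 1.93 ± 0.26, limma adjusted p = 1.74e-05). The GPI-anchored Mmp17 had 285, 358 and 412 at 36 h, against 175, 190.3 and 176 at 24 h (log2 difference 0.94 ± 0.22, limma adjusted p = 0.0334), and Mmp16 rose by 0.95 ± 0.16 (limma adjusted p = 0.00148) at 24 h over 12 h. The Mmp17 call was lost without the filter on low values (limma adjusted p = 0.0616), and that of Adam8 for the same step with 1 spread over all 24 libraries (0.534).

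Mmp3 rose by 1.17 ± 0.14 (limma adjusted p = 0.000156) at 12 h over 6 h and by 0.76 ± 0.14 (limma adjusted p = 0.00277) at 24 h over 12 h, so its largest step came first, and 36 h over 6 h came to 2.12 ± 0.14 (limma adjusted p = 1.44e-08). Mmp13 had the same order of steps, with 1.30 ± 0.19 (limma adjusted p = 0.000615) and then 1.02 ± 0.19 (limma adjusted p = 0.00298), both lost with 1 spread over all 24 libraries (0.0591 and 0.137). Mmp11, stromelysin-3, rose at 36 h over 6 h by 3.11 ± 0.34 (limma adjusted p = 2.62e-06) and had 115, 217 and 147 at 36 h, against 10.2, 17.0 and 28.2 at 6 h. Mmp28, epilysin, had 59.5, 58.3 and 59.9 at 6 h, 93.5, 137 and 135 at 12 h, 236, 252 and 169 at 24 h and 272, 234 and 215 at 36 h. It stood higher from 12 h on with no overlap with 6 h (2.00 ± 0.20, limma adjusted p = 1.24e-06 for 36 h over 6 h). Mmp9 had 35.6, 26.4 and 34.2 at 36 h, against 12.3, 14.3 and 14.1 at 6 h (limma adjusted p = 0.0196). Its call was lost without replicate 1 at 6 h or replicate 1 or 3 at 36 h (limma adjusted p = 0.0546 to 0.0585).

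Adamts genes that rose at 36 h over 6 h included Adamts7, which cleaves cartilage oligomeric matrix protein (2.80 ± 0.24, limma adjusted p = 2.15e-07), the procollagen-trimming Adamts14 (2.09 ± 0.24, limma adjusted p = 3.28e-06) and Adamts20 (2.08 ± 0.20, limma adjusted p = 6.95e-07). Adamts7 had 227, 304 and 256 normalized reads at 36 h, against 37.8, 46.2 and 28.2 at 6 h. Adamtsl1, an Adamts-like protein without a protease domain, had 16.0, 18.1 and 24.7 at 6 h, 70.1, 58.0 and 81.3 at 12 h, 189, 156 and 149 at 24 h and 202, 127 and 185 at 36 h (3.06 ± 0.24, limma adjusted p = 9.92e-08 for 36 h over 6 h). Its first 3 times did not overlap with each other, while 24 and 36 h did. Adamts1, Adamts4 and Adamts5, already high at 6 h, had log2 differences of 0.47 ± 0.13, 0.64 ± 0.25 and 0.47 ± 0.15 at 36 h over 6 h (limma adjusted p = 0.00745, 0.0408 and 0.015), and Adamts16 moved least in the F test (limma adjusted p = 0.862). The calls of Adamts4 and Adam11 were lost without the filter on low values (limma adjusted p = 0.0628 and 0.0515) and without trend and robust settings (0.0674 and 0.0713). That of Adamts4 was also lost without any 1 replicate at 6 h or replicate 1 or 3 at 36 h (0.0761 to 0.122). Adam11 lost its call without replicate 2 at 6 h or replicate 1 at 36 h (0.115 and 0.124). For Adamts5 this happened without replicate 2 at 6 h or at 36 h (0.0628 and 0.0734), and for Adamts1 with 1 spread over all 24 libraries (0.057).

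Adamts8, a proteoglycan-cleaving enzyme known to restrain vessel growth, was the gene of the set that the F test separated most strongly, and it fell. It had 380.5, 346 and 296 normalized reads at 6 h, 229.9, 211 and 187 at 12 h, 76.2, 83.5 and 77.0 at 24 h and 44.2, 57.4 and 56.3 at 36 h, each time below the one before it (36 h over 6 h -2.67 ± 0.18, limma adjusted p = 1.47e-08). Sham ganglia had 101, 75.3 and 90.6, so the 36 h libraries lay below all sham libraries and the 6 h libraries above them. Adam12 fell by 0.73 ± 0.22 (limma adjusted p = 0.0438) at 24 h over 12 h and by 0.65 ± 0.22 (limma adjusted p = 0.0216) at 36 h over 6 h. Its 24 h call was lost without the filter on low values (limma adjusted p = 0.0635), under TMM scaling (0.0544), with plain eBayes (0.0563), with 1 spread over all 24 libraries (0.0628) and without replicate 2 or 3 at 12 h or any 1 replicate at 24 h (0.0596 to 0.2), and its 36 h call without replicate 2 or 3 at 6 h or replicate 1 at 36 h (0.0509 to 0.109). Endothelial markers moved too: 9 of 10 were higher at 36 h than at 6 h, and they summed to 5240 to 6968 at 36 h, against 3050 to 3810 at 6 h. Fibroblast and mesenchyme markers were higher for 6 of 10, and neuronal markers were lower for 6 of 10. Of 8 markers of satellite glia and Schwann precursors 5 were higher and 1 lower, and of 7 markers of dividing cells 5 were higher. The part of these cell types in the culture differences was not tested.

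The Adam receptors without protease activity fell in culture. Adam22 and Adam23 bind Lgi proteins, and Adam22 places potassium channels and AMPA receptors at axonal and synaptic sites. Adam22 had 4014, 4202 and 4785 normalized reads at 6 h, 3238, 3288 and 3909.9 at 12 h, 1670.0, 2368 and 2602 at 24 h and 1573, 1707 and 1880.4 at 36 h. The 6 h libraries stood above all those of later times, and at 36 h over 6 h Adam22 fell by 1.33 ± 0.15 (limma adjusted p = 3.82e-06). Adam23 fell by 0.76 ± 0.18 (limma adjusted p = 0.00201), to 2780.2, 3056 and 3588 at 36 h, against 4377, 5468 and 6206 at 6 h, and Adam11 by 0.66 ± 0.24 (limma adjusted p = 0.029). The neuronal markers summed to 96322 to 134340 at 36 h and 166300 to 205260 at 6 h, and their part in these falls was not tested.

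The sheddase Adam17 rose. This enzyme, which releases TNF and EGF receptor ligands, had 289, 305 and 353 normalized reads at 6 h, 425, 392 and 399 at 12 h, 723, 657 and 712 at 24 h and 976, 759.8 and 722 at 36 h (1.37 ± 0.14, limma adjusted p = 9.77e-07 for 36 h over 6 h). Its times did not overlap up to 24 h, while the lowest library at 36 h fell just within the range of 24 h. Adam10 had 4246, 3362 and 3644 at 36 h, against 2418, 1904 and 2161 at 6 h (0.80 ± 0.17, limma adjusted p = 0.0011). Adam8, a sheddase known from leukocytes, had 113, 149 and 138 at 6 h, 159.7, 179 and 170.1 at 12 h, 315, 275 and 315 at 24 h and 461, 462 and 467 at 36 h. It was higher at each time than at the one before, and its 36 h libraries differed by less than 10 normalized reads (1.80 ± 0.15, limma adjusted p = 1.26e-07 for 36 h over 6 h). Of the 3 inhibitors tested, Timp1 alone was called higher at 36 h than at 6 h (log2 difference 1.47). It had 516, 467 and 683 at 36 h, against 163, 236 and 197 at 6 h. Timp2 (-0.35, limma adjusted p = 0.0518) and Timp3 (-0.16) were not called, while DESeq2 called Timp2 lower (adjusted p = 0.0287).

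**Figure D3:**
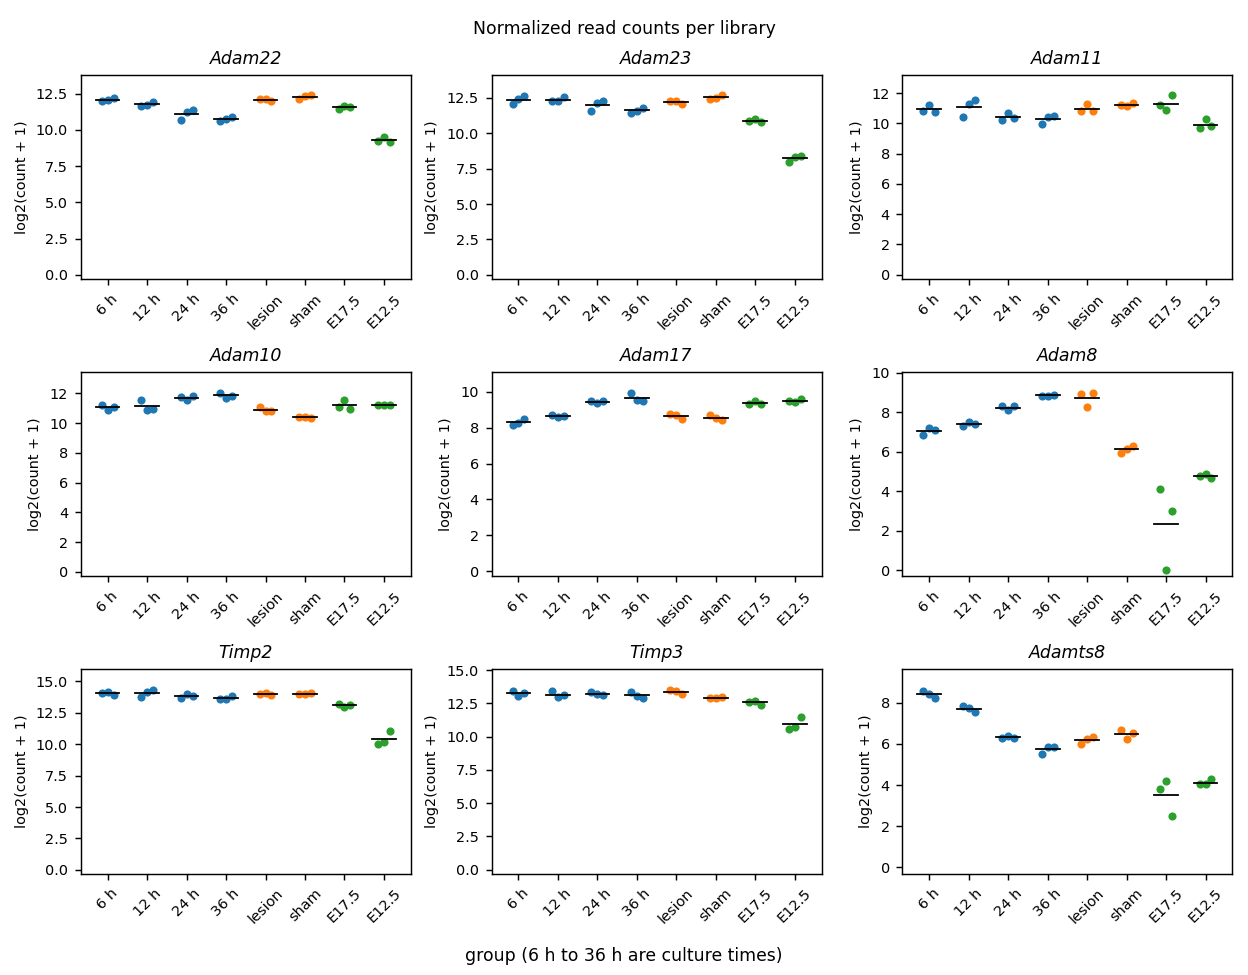
Normalized read counts as log2(count + 1) of Adam22, Adam23, Adam11, Adam10, Adam17, Adam8, Timp2, Timp3 and Adamts8, with a point per library and a bar at the mean of each group of 3 (6 to 36 h culture, lesion, sham, E17.5, E12.5). Adam22, Adam23 and Timp2 are lowest at E12.5, Adam8 is high at 36 h and after lesion, and Adamts8 falls from 6 to 36 h.

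After a peripheral lesion, which injures the outer branch of sensory neurons away from the ganglion, more genes of the set were higher than lower relative to sham. Of 50 genes tested, 22 were higher after lesion and 2 lower, with a median log2 difference of 0.37 against -0.01 over all 14556 genes, of which 20.9% were higher and 20.2% lower. Groups did not overlap for 30 of the 50 genes, against 52.5% of all genes. By family, 7 of 12 Mmp genes were higher and 0 lower (0 at an unadjusted limma p under 0.05 as well), 7 of 16 Adamts genes higher and 1 lower, and 4 of 14 Adam genes higher and 1 lower. With 1 spread estimated over all 24 libraries, 11 of 58 genes of the set were higher and 0 lower, and the shares over all genes in that fit are not given here.

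Mmp16, a membrane-type protease that activates pro-Mmp2 and cleaves proteoglycans at the cell surface, had the largest rise of the set. Its values were 1418, 960.2 and 1113 normalized reads after lesion, against 162, 148 and 158 after sham surgery. The groups were far apart, with a log2 difference of 2.87 ± 0.12 (limma adjusted p = 1.99e-08). Adam8 had 492, 312 and 497 after lesion, against 60.0, 69.4 and 79.1 after sham surgery (2.60 ± 0.18, limma adjusted p = 8.08e-07), and the library labelled lesion replicate 2 had the lowest of its 3 values. Replicate 3 of each group comes from another range of library numbers. With only the other 4 libraries the log2 differences were 2.90 for Mmp16 and 2.58 for Adam8 (limma adjusted p = 3.71e-05 and 7.27e-05).

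The GPI-anchored Mmp25, known as leukolysin, had 1189.7, 1191 and 1246 normalized reads after lesion, against 611, 556 and 689.9 after sham surgery (0.97 ± 0.08, limma adjusted p = 2.30e-06). Adam19, a protease that processes neuregulins, had 2737, 2453 and 2449.8 after lesion, against 1365, 1371 and 1447 after sham surgery (0.87 ± 0.07, limma adjusted p = 1.39e-06). Mmp19 had 146, 83.5 and 109.9 after lesion, against 45.3, 33.6 and 36.7 after sham surgery (1.50 ± 0.21, limma adjusted p = 9.03e-05). Each of the 3 genes was higher in every lesion library than in any sham library. Timp1 was higher by 1.51 ± 0.36 (limma adjusted p = 0.00415), at 23.2, 18.4 and 20.2 after lesion and 10.8, 4.39 and 5.73 after sham surgery, a low level in both.

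Smaller rises after lesion were those of Mmp2 (0.66 ± 0.11, limma adjusted p = 0.000474), Adamts10, which binds fibrillin (0.65 ± 0.13, limma adjusted p = 0.00168), Adamts1 (0.59 ± 0.11, limma adjusted p = 0.000732), Adamts2 (0.50 ± 0.12, limma adjusted p = 0.00498), Adam10 (0.48 ± 0.08, limma adjusted p = 0.000384), Timp3 (0.46 ± 0.08, limma adjusted p = 0.000554) and Mmp14 (0.30 ± 0.10, limma adjusted p = 0.0358). Mmp2 had 397, 471 and 384 normalized reads after lesion, against 302, 251 and 239 after sham surgery, without overlap. Falls were those of Adam23 (-0.32 ± 0.09, limma adjusted p = 0.00931) and Adamts15 (-0.32 ± 0.09, limma adjusted p = 0.0142), and Adamts15 had 390.1, 443 and 494 after lesion, against 535, 550.5 and 568 after sham surgery. With 1 spread over all 24 libraries Mmp2, Mmp14, Adamts1, Adamts2, Adamts10, Timp3, Adam23 and Adamts15 were not called (limma adjusted p = 0.0526 to 0.406), and with the 4 libraries of 1 number range Mmp14 and Adam23 were not (0.092 and 0.134). The count of falls was 1 without lesion replicate 1 and 5 without lesion replicate 2. Mmp9 had 51.9, 102 and 68.2 after lesion and 55.1, 41.7 and 67.7 after sham surgery, and the groups overlapped (0.40 ± 0.25, limma adjusted p = 0.213). Timp2 (-0.04 ± 0.07, limma adjusted p = 0.643), Adam17 (0.09 ± 0.10, limma adjusted p = 0.475), Adam22 (-0.19 ± 0.08, limma adjusted p = 0.0742), Adam11 (-0.25 ± 0.11, limma adjusted p = 0.0991), Adamts4 (0.43 ± 0.26, limma adjusted p = 0.204) and Adamts5 (0.06 ± 0.11, limma adjusted p = 0.678) were not called, nor was Mmp13 tested.

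Macrophage markers moved with these genes. Of the 11 in the table, 9 were higher after lesion, and they summed to 3011 to 4462 normalized reads after lesion, against 1460 to 1570 after sham surgery. Fibroblast and mesenchyme markers were higher for 8 of 10. Neutrophil markers summed to 731 to 1371 after lesion and 737 to 864 after sham surgery, overlapping. The part of these cells in the lesion differences was not tested. Mmp12, the macrophage elastase, was at 3.10, 1.67 and 3.47 after lesion and 0.984, 1.46 and 1.72 after sham surgery.

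**Figure D4:**
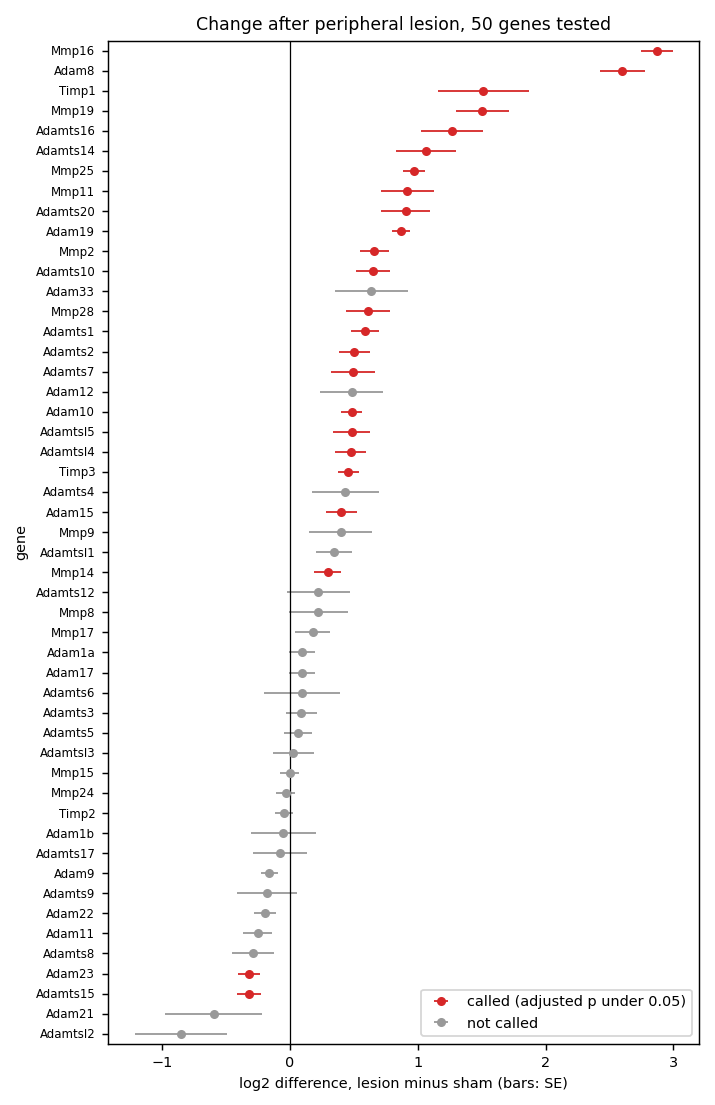
Log2 difference, lesion minus sham, of the 50 tested genes (rows, ordered by the difference), with bars for the SE. Genes called at an adjusted p under 0.05 are in red and the others in grey; Mmp16 and Adam8 lie at the far right at 2.87 and 2.60, and Adam23 and Adamts15 are the called genes left of 0.

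The lesion and the 36 h over 6 h differences share no library, and 49 genes of the set were tested in both. Of the 22 genes higher after lesion, 18 were also higher at 36 h than at 6 h, which is 81.82% of these 22 and 66.67% of the 27 higher in culture. Over all 14207 genes tested in both, 1490 were higher in both, which is 50.4% of those higher after lesion and 41.1% of those higher in culture. The bases differed: 27 of the 49 genes of the set were higher in culture, against 3628 of the 14207 genes. The shares of the set and of all genes are therefore not directly comparable. Among the 18 were Mmp16, Adam8, Mmp19, Timp1, Adam19, Mmp25, Mmp2, Mmp14 and Adam10, and Adam23 was lower in both. The sizes in the pair of comparisons were as follows. Mmp16 differed by 2.87 ± 0.12 after lesion and 1.25 ± 0.16 at 36 h over 6 h, Mmp25 by 0.97 ± 0.08 after lesion and 0.37 ± 0.14 in culture, and Adamts7 by 0.49 ± 0.17 after lesion and 2.80 ± 0.24 in culture. The culture call of Mmp25 was lost without the filter on low values (limma adjusted p = 0.0507), with plain eBayes (0.0603), with 1 spread over all 24 libraries (0.056) and without replicate 3 at 6 h or any 1 replicate at 36 h (0.0753 to 0.173). The lesion call of Adamts7 was lost by DESeq2 (adjusted p = 0.103) and by limma with 1 spread over all 24 libraries (0.101), with the 4 libraries of 1 number range (0.0697) and without replicate 1 or 2 of either group (0.0551 to 0.0972). Adam17 was not called after lesion (0.09 ± 0.10) and rose in culture (1.37 ± 0.14), and Adam22 was not called after lesion (-0.19 ± 0.08) and fell in culture (-1.33 ± 0.15). Whether the lesion and culture differences of a gene differ from each other was not tested.

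**Figure D5:**
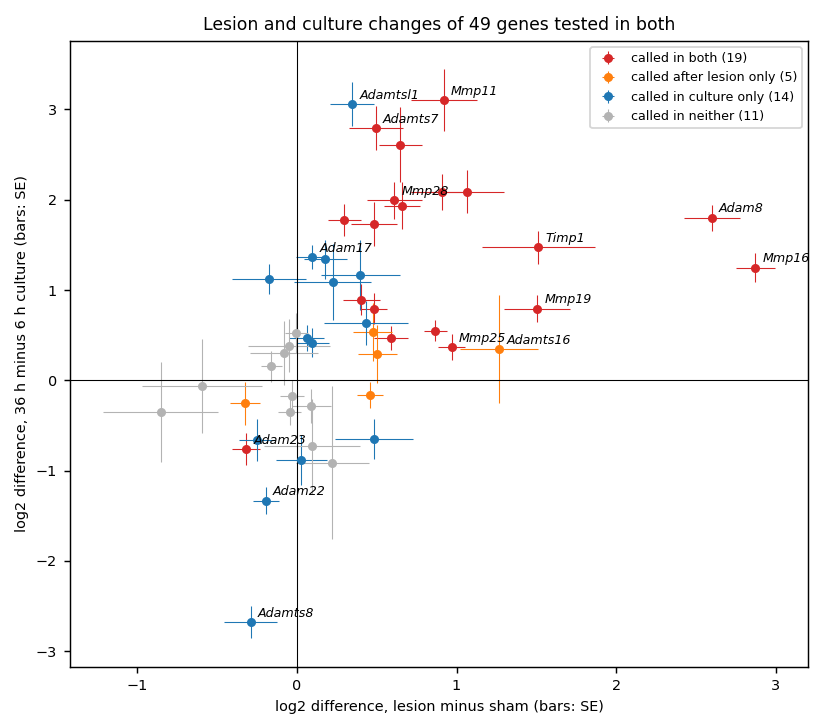
Log2 difference of the 49 genes tested in both comparisons, lesion minus sham on the horizontal axis and 36 h minus 6 h culture on the vertical axis, with bars for the SE and colours for the comparison in which a gene was called. Of these genes 19 were called in both, 5 after lesion alone and 14 in culture alone; Mmp16 and Adam8 lie to the right, Adamtsl1 and Mmp11 at the top, and Adamts8 at the bottom.

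At E17.5, when DRG neurons are extending and innervating their targets, more genes of the set were higher than lower relative to E12.5. Of 50 genes tested, 27 were higher at E17.5 and 7 lower, with a median log2 difference of 1.01 against -0.05 over all 14503 genes, of which 31.1% were higher and 32.0% lower. The groups did not overlap for 34 genes, against 69.9% of all genes. Of 13 Adam genes 8 were higher and 2 lower, of 12 Mmp genes 6 and 1, and of 17 Adamts genes 8 and 3. Without the E12.5 library that stood apart, 29 of the set were higher and 5 lower, and the shares over all genes in that fit are not given here.

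Adamts5, the main aggrecan-cleaving enzyme of mouse cartilage, had 2344, 2624 and 2231 normalized reads at E17.5, against 169.6, 222 and 257 at E12.5 (log2 difference 3.48 ± 0.17, limma adjusted p = 9.39e-07). Adamts4, with a like activity on proteoglycans, went the other way, with 49.0, 28.2 and 34.7 at E17.5 and 109.8, 151 and 148 at E12.5 (-1.86 ± 0.26, limma adjusted p = 0.000289). Both pairs of groups were without overlap. Adamts1, the third of these enzymes, was not called with all libraries (-0.02 ± 0.30, limma adjusted p = 0.95) and differed by 0.38 without E12.5 replicate 3 (limma adjusted p = 0.0404). That library had 911 normalized reads, and the other E12.5 libraries had 382 and 411.

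Mmp9 had 414, 335 and 335 normalized reads at E17.5, against 18.7, 29.6 and 33.9 at E12.5 (3.71 ± 0.25, limma adjusted p = 4.03e-06), and E17.5 was its highest group. Mmp25 had 789, 490.3 and 805 at E17.5, against 36.2, 45.6 and 46.1 at E12.5 (3.97 ± 0.22, limma adjusted p = 1.84e-06). Both genes were separated without overlap. Mmp2 had 619.5, 402 and 622 at E17.5 and 655, 684 and 1538 at E12.5 and was not called (-0.72 ± 0.33, limma adjusted p = 0.0833), nor was Mmp14 (0.10 ± 0.25, limma adjusted p = 0.746). Erythroid markers summed to 16421 to 27624 at E17.5, against 6247 to 9375 at E12.5, but only 3 of 8 were higher and 3 were lower. Fibroblast and mesenchyme markers summed to 38027 to 48141 at E17.5, against 10515 to 22260 at E12.5, with 6 of 9 higher and 2 lower. The part of these cells in the differences was not tested.

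The Lgi receptors rose together: Adam23 had 1847, 2070.4 and 1813 normalized reads at E17.5, against 252, 313 and 335 at E12.5 (2.68 ± 0.14, limma adjusted p = 1.40e-06), Adam22 was higher by 2.25 ± 0.13 (limma adjusted p = 2.23e-06) and Adam11 by 1.39 ± 0.26 (limma adjusted p = 0.00139). Neuronal markers were higher for 9 of 10 and summed to 143110 to 182110 at E17.5, against 44433 to 66709 at E12.5. All 8 myelinating Schwann cell markers were higher too, with sums of 10838 to 12447 at E17.5, against 1143 to 1647 at E12.5, and the part of these cells in the rises was not tested. Adam10 and Adam17 were not called: Adam10 differed by -0.02 ± 0.16 (limma adjusted p = 0.923) and Adam17 by -0.11 ± 0.12 (limma adjusted p = 0.447). Timp2 had 9446, 7862 and 8990.0 at E17.5, against 1053, 1122 and 2085 at E12.5, without overlap (2.69 ± 0.24, limma adjusted p = 2.19e-05), and Timp3 rose by 1.64 ± 0.23 (limma adjusted p = 0.000318), while Timp1 was not called (0.63 ± 0.54, limma adjusted p = 0.336). Further rises were those of Adamtsl5 (4.09 ± 0.31, limma adjusted p = 8.27e-06), Adamtsl3 (3.77 ± 0.40, limma adjusted p = 5.33e-05), Adamts2 (2.64 ± 0.39, limma adjusted p = 0.000368) and Adamts3 (2.47 ± 0.12, limma adjusted p = 1.05e-06), the last 2 both procollagen-trimming enzymes.

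Lower at E17.5 were also Adamtsl1 (-1.86 ± 0.23, limma adjusted p = 0.000149), Adam1a (-0.96 ± 0.17, limma adjusted p = 0.00121), Adamts19 (-0.88 ± 0.31, limma adjusted p = 0.0331), Mmp11 (-0.64 ± 0.19, limma adjusted p = 0.0163) and Adamts7 (-0.47 ± 0.17, limma adjusted p = 0.0342). The Adamts7 difference was -0.33 without E12.5 replicate 3 (limma adjusted p = 0.102). Adam1a and Adam1b lie next to each other on chromosome 5 and are alike, and how reads shared by such copies were counted is not given. Adam8 was lower (-2.43 ± 0.90, limma adjusted p = 0.0417), from few reads at E17.5, where 1 library had none, and its call was lost without the filter on low values (adjusted p = 0.056) and by DESeq2 on recovered reads (0.0608). With 1 spread over all 24 libraries Adamts19 and Mmp11 were not called (limma adjusted p = 0.301 and 0.0571), and Mmp2 was called lower at E17.5 (0.0279). Adamts6 was left out of this fit. At E12.5 its values were 14.3, 81.0 and 13.7 normalized reads, of which the first and the last equalled the mean over all libraries trimmed by 20% at each end, so only the library with 81.0 holds a value of its own. In every other group it lay between 4.62 and 21.2.

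In adult sham ganglia relative to E17.5, the set was mostly lower. Of 53 genes tested, 11 were higher in sham ganglia and 33 lower, with a median log2 difference of -0.84 against -0.03 over all 14652 genes, of which 28.9% were higher and 31.1% lower. Groups did not overlap for 46 of the 53 genes, against 67.3% of all genes. Of 18 Adamts genes 1 was higher and 16 were lower, and of 13 Mmp genes 1 and 9. E17.5 libraries take part in the E17.5 over E12.5 differences as well, and the sham libraries in those after lesion and at 6 h.

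Adam12 had 51.2, 32.9 and 38.4 normalized reads in sham ganglia, against 825, 808 and 687 at E17.5 (log2 difference -4.23 ± 0.18, limma adjusted p = 2.60e-07). Adamts17, known from fibrillin microfibrils, had 39.4, 49.0 and 32.7 in sham ganglia, against 845, 649 and 647 at E17.5 (-4.12 ± 0.19, limma adjusted p = 3.10e-07). Both genes were lower in every sham library than in any E17.5 library. Large falls were also those of Mmp13 (-5.81 ± 0.59, limma adjusted p = 3.52e-05), Adamts12 (-3.91 ± 0.20, limma adjusted p = 5.85e-07), Adamts7 (-2.92 ± 0.16, limma adjusted p = 7.36e-07), Mmp11 (-2.88 ± 0.18, limma adjusted p = 1.43e-06), Mmp9 (-2.72 ± 0.20, limma adjusted p = 4.30e-06), Adamts9 (-2.61 ± 0.14, limma adjusted p = 7.69e-07), Adamts20 (-2.53 ± 0.18, limma adjusted p = 4.08e-06) and Adamts3 (-2.49 ± 0.11, limma adjusted p = 3.10e-07). Fibroblast and mesenchyme markers summed to 8700 to 11114 in sham ganglia, against 38027 to 48141 at E17.5, and of 8 cartilage and bone markers 7 were lower. Their part in these falls was not tested.

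Mmp14 (-1.91 ± 0.18, limma adjusted p = 1.77e-05), Mmp2 (-1.03 ± 0.19, limma adjusted p = 0.00114), Adam10 (-0.80 ± 0.15, limma adjusted p = 0.00128), Adam17 (-0.84 ± 0.12, limma adjusted p = 0.000249), Adamts4 (-1.10 ± 0.31, limma adjusted p = 0.012) and Adamts5 (-1.25 ± 0.11, limma adjusted p = 1.62e-05) were lower as well. Higher in sham ganglia were Adam23, at 5558, 5750.3 and 6541 normalized reads, against 1847, 2070.4 and 1813 at E17.5 (1.64 ± 0.10, limma adjusted p = 1.68e-06), Adam22 (0.71 ± 0.11, limma adjusted p = 0.000481), Timp2 (0.93 ± 0.10, limma adjusted p = 3.91e-05) and Timp3 (0.35 ± 0.10, limma adjusted p = 0.0145). Adam9 (0.67 ± 0.14, limma adjusted p = 0.00306), Adam15 (0.47 ± 0.16, limma adjusted p = 0.0297), Adam1a (1.13 ± 0.16, limma adjusted p = 0.000222) and Adamtsl5 (0.46 ± 0.17, limma adjusted p = 0.0417) were higher too. Neuronal markers summed to 311820 to 341910 in sham ganglia, against 143110 to 182110 at E17.5 (5 of 10 higher and 2 lower), and myelinating Schwann cell markers to 69492 to 87681 in sham ganglia, against 10838 to 12447 at E17.5 (8 of 8 higher). Their part in these rises was not tested. Adamts1 was lower (-0.38 ± 0.11, limma adjusted p = 0.0121) and Adam11 was not called (-0.09 ± 0.21, limma adjusted p = 0.717). Timp1 was lower too (-1.44, limma adjusted p = 0.0436), though the groups overlapped and the call was lost without the filter on low values (0.0538). The calls of Timp3, Adamts1 and Adamtsl5 were lost with 1 spread over all 24 libraries (limma adjusted p = 0.091, 0.123 and 0.108), and that of Adam15 without trend and robust settings (0.0508).

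Genes that act with these proteases were followed as 4 lists, whose counts stand beside those of all genes tested. Of all genes 27.6% were higher and 30.7% lower at 6 h against sham, 25.3% and 25.3% at 36 h over 6 h, 20.9% and 20.2% after lesion, 31.1% and 32.0% at E17.5 over E12.5, and 28.9% and 31.1% in sham ganglia over E17.5. The median log2 differences of all genes in these 5 comparisons lay between -0.06 and 0.02.

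The list of activators and surface partners (furin-type convertases, Reck, iRhoms, tetraspanins and Lgi ligands) had 2 higher and 10 lower of 19 at 6 h against sham, 12 higher and 3 lower of 19 at 36 h over 6 h, 8 higher and 4 lower of 19 after lesion, 8 higher and 5 lower of 19 at E17.5 over E12.5 and 7 higher and 4 lower of 19 in sham ganglia over E17.5. Its median log2 differences were -0.43 at 6 h against sham, 0.80 at 36 h over 6 h, 0.23 after lesion, 0.32 at E17.5 over E12.5 and 0.18 in sham ganglia over E17.5. Lgi4, a ligand of Adam22 made by Schwann cells, averaged 3061 ± 198 normalized reads at 36 h and 356 ± 12.0 at 6 h (3.10 ± 0.13, limma adjusted p = 2.00e-10). At 6 h Lgi4 was itself called lower than in sham ganglia, without overlap, so this rise starts from a level below sham. Rhbdf2, the iRhom that carries Adam17 to the surface, rose by 2.08 ± 0.31 (limma adjusted p = 4.55e-05), while Lgi1 fell by 1.61 ± 0.18 (limma adjusted p = 3.32e-06) and Lgi3 by 1.29 ± 0.30 (limma adjusted p = 0.00222). After lesion Reck, a membrane-anchored inhibitor of Mmps, rose by 0.85 ± 0.11 (limma adjusted p = 7.04e-05) and Lgi3 fell by 1.16 ± 0.08 (limma adjusted p = 4.16e-07), to 1475 ± 135 after lesion, against 3292 ± 165 after sham surgery. At E17.5 over E12.5 Lgi3 (3.70 ± 0.39, limma adjusted p = 5.47e-05) and Lgi1 (3.11 ± 0.35, limma adjusted p = 7.65e-05) were higher.

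Plasminogen activators produce plasmin, which activates several pro-Mmps. This list had 5 higher and 2 lower of 10 at 6 h against sham, 4 higher and 4 lower of 10 at 36 h over 6 h, 5 higher and 1 lower of 9 after lesion, 5 higher of 9 at E17.5 over E12.5 and 5 higher and 3 lower of 9 in sham ganglia over E17.5. The medians were 0.59 at 6 h against sham, 0.28 at 36 h over 6 h, 0.42 after lesion, 1.00 at E17.5 over E12.5 and 0.51 in sham ganglia over E17.5. Plaur, the urokinase receptor, rose by 3.25 ± 0.16 (limma adjusted p = 4.84e-10) at 6 h over sham and by 2.06 ± 0.16 (limma adjusted p = 1.13e-06) after lesion, with the sham libraries shared by both. Serpine2 rose by 2.60 ± 0.12 (limma adjusted p = 6.58e-10) at 36 h over 6 h, and Plau, urokinase, fell by 1.18 ± 0.19 (limma adjusted p = 0.000122).

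The matrix substrates had 4 higher and 13 lower of 22 at 6 h against sham, 8 higher and 3 lower of 22 at 36 h over 6 h, 13 higher and 5 lower of 22 after lesion, 14 higher and 4 lower of 21 at E17.5 over E12.5 and 5 higher and 15 lower of 22 in sham ganglia over E17.5. Median log2 differences of the list were -0.75 at 6 h against sham, 0.31 at 36 h over 6 h, 0.31 after lesion, 1.35 at E17.5 over E12.5 and -1.59 in sham ganglia over E17.5. Tnc, tenascin-C, averaged 1968 ± 215 normalized reads at 6 h and 44.2 ± 11.0 in sham ganglia (5.47 ± 0.17, limma adjusted p = 6.19e-12), while Bcan, brevican (-1.71 ± 0.14, limma adjusted p = 8.70e-08), and Dcn, decorin (-1.70 ± 0.13, limma adjusted p = 3.39e-08), fell. After lesion Fn1, fibronectin, rose by 1.35 ± 0.11 (limma adjusted p = 1.77e-06) and Hapln1, a link protein, fell by 0.94 ± 0.12 (limma adjusted p = 4.57e-05). At E17.5 over E12.5 Bcan was higher (4.58 ± 0.31, limma adjusted p = 4.31e-06) and Vcan, versican, lower (-2.80 ± 0.32, limma adjusted p = 8.02e-05).

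The membrane proteins that Adam sheddases are known to cleave had 17 higher and 5 lower of 28 at 6 h against sham, 12 higher and 7 lower of 29 at 36 h over 6 h, 12 higher and 3 lower of 26 after lesion, 14 higher and 6 lower of 27 at E17.5 over E12.5 and 6 higher and 12 lower of 27 in sham ganglia over E17.5. Here the medians were 0.43 at 6 h against sham, 0.18 at 36 h over 6 h, 0.17 after lesion, 0.53 at E17.5 over E12.5 and -0.12 in sham ganglia over E17.5. Tnf averaged 340.4 ± 70.6 normalized reads at 6 h and 1.25 ± 1.16 in sham ganglia (7.39 ± 0.39, limma adjusted p = 1.03e-09). It passed the filter through its 6 h libraries alone. With sham values near 0, the size of its difference depends on the 1 added before log2. Hbegf, an EGF receptor ligand, rose by 2.79 ± 0.16 (limma adjusted p = 3.03e-09). By 36 h Tnf was lower than at 6 h (-1.13 ± 0.23, limma adjusted p = 0.00073), and Notch1 was higher (1.96 ± 0.17, limma adjusted p = 1.68e-07). Chl1, an adhesion molecule of growing axons that Adam8 cleaves, averaged 5305 ± 1131 after lesion and 1299 ± 99.2 after sham surgery (2.01 ± 0.13, limma adjusted p = 3.50e-06). At E17.5 over E12.5 Cd44 was higher (5.36 ± 0.23, limma adjusted p = 5.58e-07) and Notch1 lower (-2.02 ± 0.24, limma adjusted p = 0.000118).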

How the data were processed

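The deposited table holds 1 signal value per gene and library, a read count that the authors divided by 1 factor per library. TopHat and mm10 are named in the submitters' processing notes, while no source used here gives the annotation, counting tool, filters or strand handling. Low values in each library were multiples of 1 step, and with it 100% of 339602 values of up to 1000 reads were whole within 0.1 reads, so recovered reads served count tests as an alternative. The tests had been planned for another unit. Of all genes tested for lesion against sham, limma called 5990, edgeR on recovered reads 6071 and DESeq2 5400.

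Differences in log2(value + 1) were tested by limma 3.58.1 (R 4.3.3) using trend and robust eBayes, for genes with at least 10 in 3 libraries of the fit and Benjamini-Hochberg adjustment over all genes tested. Each comparison used its own libraries, the culture course its 12 libraries. Genes holding trimmed-mean values at E12.5, Adamts6 among them, were left out of the E17.5 fit. Alternatives were pseudocounts of 0.5 and 5, no filter and a filter at 50, edgeR 4.0.16, DESeq2 1.42.0, TMM scaling, plain eBayes, 1 fit over all libraries, the library number range as a term, and each library left out. Scripts were tested on simulated data. Replicates correlated at r = 0.972 to 0.993 across genes, and no pair agreed within sampling noise (chi-square per degree of freedom at least 4.44). All 24 columns matched a sample.

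The genes, lists and tests were chosen with earlier results of these data known. Named genes were drawn from the 10 largest called rises and falls of each comparison with groups that do not overlap and a mean of at least 100, 18 genes of known roles, and the extremes of the F test. Not every named gene is given with a value in every comparison. Marker lists name cell types by textbook markers. Promoters are from RefSeq (GRCm38.p6) and gene positions and exon lengths from GENCODE M21. Floors and SE cover counting error or the spread between libraries only.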

Additional observations from a re-analysis of the deposited data

How the results depend on the processing

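No paired analysis was possible because the labels give no replicate numbers shared between groups. With the library number range as a term, lesion against sham gave 22 higher and 2 lower genes, and all named genes kept their direction and side of the threshold. Among 5409 values of named genes under the alternatives, 5115 kept direction and side of the threshold, 234 lost their call, 59 gained one and 1 reversed: Adamts1 at E17.5 over E12.5 was 0.38 without E12.5 replicate 3, and -0.25 to 0.38 with each library left out in turn. With 1 fit over all 24 libraries, 58 genes of the set were tested in each comparison, against 50 for lesion against sham in its own fit. There lesion against sham gave 11 higher and 0 lower genes (0 lower at an unadjusted limma p under 0.05), 12 h over 6 h gave 1 lower and 36 h over 24 h 1 lower. The genes lower after lesion numbered 4 without a filter, 0 with plain eBayes (3 at an unadjusted p) and 1 in the 4 libraries of 1 number range, an alternative chosen after seeing the data. At 36 h over 24 h, 1 gene was higher without a filter, 4 by edgeR, 7 by DESeq2 and 1 with plain eBayes, and edgeR gave 1 lower. A filter at 50, under which fewer genes were tested, gave 9 lower at 6 h against sham. Counts over all genes are given here only for edgeR and DESeq2, at lesion against sham and at 36 h over 24 h. Under the other alternatives, and with libraries left out, a change in the set cannot be told from a change over all genes. The cause of the other moves was not tested.

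With each library left out in turn, genes of the set lower at E17.5 than at E12.5 numbered 4 (without E17.5 replicate 3) to 6, and lower after lesion 1 (without lesion replicate 1) to 5 (without lesion replicate 2). In culture, genes lower at 12 h than at 6 h numbered 0 (without 6 h replicate 1 or 2 or 12 h replicate 2) to 2. Higher at 24 h than at 12 h were 9 (without 24 h replicate 1 or 2) to 14, and lower were 1 (without 24 h replicate 1) to 6 (without 12 h replicate 1). Higher at 36 h than at 24 h were 0 to 1, where each library of these times took away at least 1 of the 2 calls, and lower at 36 h than at 6 h were 4 (without 6 h replicate 2) to 8. The other counts stayed within 1.5 times of the full value. TMM scaling moved the median of all genes to -0.10 at E17.5 over E12.5. Depth limits values under about 10 normalized reads, such as those of Mmp10 and Mmp12 outside culture.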

Other observations

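Adamts8 and Adamts15 lie beside each other on chromosome 9, within 64.7 kb. At 6 h over sham Adamts8 was higher (log2 difference 1.93 ± 0.16, limma adjusted p = 1.29e-07) and Adamts15 lower (-2.65 ± 0.14, limma adjusted p = 8.1e-10), and all 6 h libraries lay outside the range of the sham libraries for both. Adamts1 and Adamts5, neighbours on chromosome 16, were both higher at 6 h.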
